A study of Mus musculus with 4 samples.

Results

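Unstimulated mouse embryonic fibroblasts lacking Xiap were compared with unstimulated wild-type fibroblasts on Affymetrix U74Av2 arrays, 1 array a side. These are 2 of the 4 arrays of the study. The remaining pair holds the same genotypes after 20 ng/ml TNF for 4 hours, given to confluent cells. Every array measured total RNA of cells kept in the same medium, DMEM with fetal calf serum, and passaged on the same schedule. The genes described are those named by exactly 1 symbol in the platform's annotation, which applied to 10833 of 12488 probe sets and to 8251 genes. Not given in the sources used here are the deleted allele, the mouse strain, the sex and stage of the embryos and the number of embryos behind each culture. Each genotype is 1 culture line as far as the labels show, so genotype and culture line cannot be told apart in any value below.

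The product of Xiap, X-linked inhibitor of apoptosis, binds and blocks caspases, the proteases that carry out apoptosis, and it is also a ubiquitin ligase that acts in signalling to NF-kB. Embryonic fibroblasts are a mixed mesenchymal culture that keeps traces of the body region it came from, above all in its Hox and other homeobox genes, and that deposits collagen, proteoglycans and other matrix.

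The values are signals, the summary intensity of a probe set on a linear scale. The arrays had been scaled to the same trimmed mean, and median signals of the unstimulated pair were 183 for wild-type and 179 for knockout. Signals under 92.5, which is the 40th percentile over all arrays, were set to that floor before ratios were taken, and ratios are given as log2 of knockout over wild-type. Where 1 array of a pair is at the floor, the ratio bounds the difference from below. A gene was measured where at least 1 array of the pair was above the floor, which applied to 6062 genes. RNA integrity, read as the 3' to 5' ratio of control probe sets, stood at 0.762 in wild-type and 0.780 in knockout for Gapdh, and 1.08 and 1.10 for actin. The ratios were 3.45 and 2.65 for the transferrin receptor and 0.899 and 0.796 for pyruvate carboxylase. Of 10 fibroblast markers, 10 were measured, and their signals summed to 63780 on the wild-type array and to 63120 on the knockout array, most of it from Col1a1, Col1a2 and Col3a1. Single markers differed: S100a4 had more signal in knockout cells (log2 ratio 1.60), Thy1 (-1.86) and Fap (-1.76, a bound) were lower, and Vim read 83.0 and 94.5, near the floor. None of 5 pluripotency markers reached the floor. Among leukocyte markers 4 of 8 were measured. Cd14 read 1900 and 2187, Csf1r 355 and 373 and Cd68 139 and 142, while Ptprc, Adgre1, Itgam and Cd3e were below the floor on both arrays. Among epithelial markers 2 of 9 were measured, with Cdh1 at 460 and 530.5 and with Epcam, Krt8 and Krt18 below the floor. None of these leukocyte and epithelial markers differed 2-fold after flooring, which narrows the ratio of dim ones. Lyz2, the other measured leukocyte marker, read 31.0 and 97.5, and Krt19, below the floor, read 7.1 and 80.2. With the floor at the 20th percentile 1 epithelial marker was at least 2-fold higher and 0 lower. Of the leukocyte markers 1 was then higher and 1 lower. In these arrays fewer cells of a type and less RNA per cell cannot be told apart.

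With 1 array a side the comparison has no test, no replicate supports any ratio, and precision is limited by the number of arrays. At least 2-fold higher in knockout cells were 276 of the 6062 measured genes, or 4.55%, and at least 2-fold lower were 285, or 4.7%. Of these, 54 and 70 are bounds. The median log2 ratio of all measured genes was -0.01, and 90.75% of genes lay within 2-fold. A difference of at least 16-fold was seen for 12 higher and 6 lower genes. Agreement between probe sets of 1 gene gives a reading of error within this pair. Of 1064 genes with several measured probe sets, 92.0% had ratios within 2-fold of each other, in a pair where most genes lay within 2-fold, and 68.6% had ratios of 1 sign. Of the 112 among them that were past 2-fold, 101 had the same sign in all other measured probe sets, and 48 were past 2-fold in all of them.

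**Figure D1:**
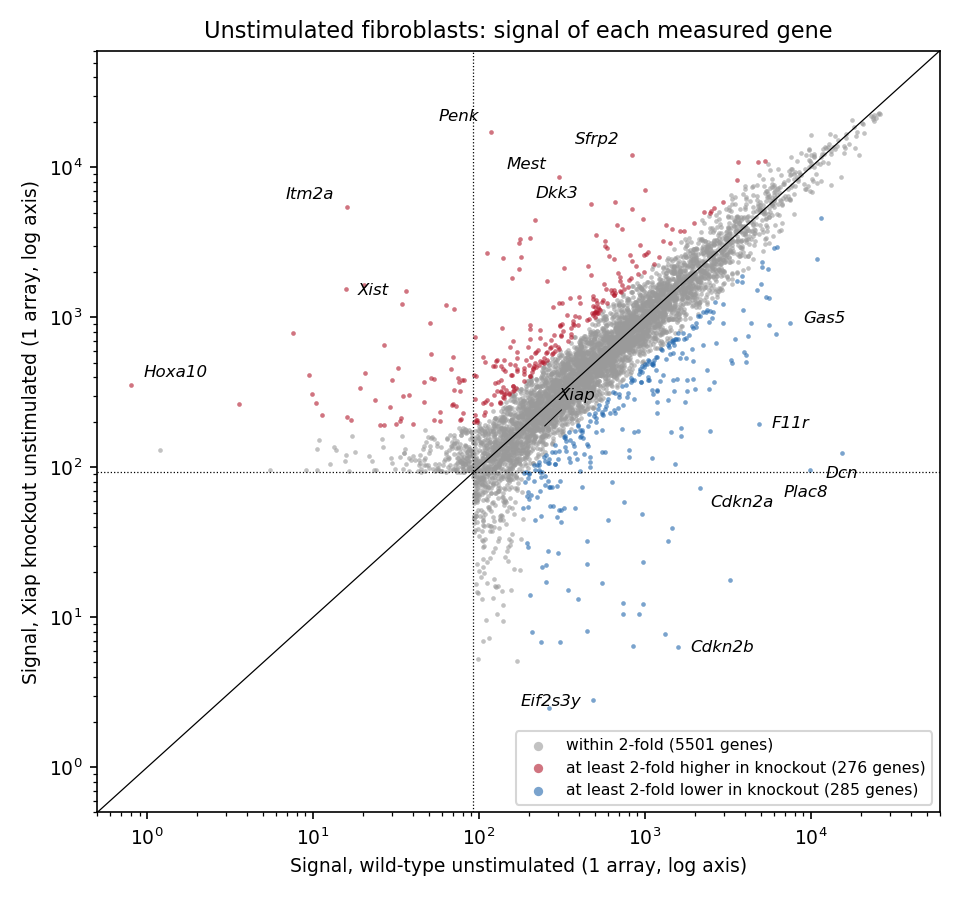
Signal of each measured gene in unstimulated wild-type (x axis) and Xiap knockout (y axis) fibroblasts, 1 array each, on log axes. Dotted lines mark the floor of 92.5 and the solid line marks equal signals. Colours follow the log2 ratio of floored signals, with 276 genes higher by 2-fold or more and 285 lower, while Xiap lies near the line of equal signals.

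The TNF pair shares no array with the unstimulated pair but comes from the same lines, so it repeats the measurement and not the genotype. Of the 276 higher genes, 178 were at least 2-fold higher on the TNF arrays too, where 5.62% of measured genes were, and 270 had a ratio above 0. Of the 285 lower genes, 176 were at least 2-fold lower there, against 5.01% of measured genes, and 264 had a ratio below 0. Among genes at least 4-fold apart, 61 of 64 higher and 68 of 70 lower genes were at least 2-fold apart in the same direction. Over the 5740 genes measured in both pairs the ratios differed by a median of 0.23 on the log2 scale. When the genes were ranked by mean signal and cut into 5 equal groups, this difference was 0.37 in the dimmest group and 0.15 in the brightest.

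An additive limma fit of genotype and TNF over the 4 arrays called 706 of 6174 genes higher in knockout cells (11.4%) and 645 lower (10.4%), at a Benjamini-Hochberg adjusted p under 0.05. It takes the difference of the genotype ratio between the TNF states as its error, with 1 residual degree of freedom a gene and no replicate cultures. Adjusted p-values below are from this fit and describe both states together.

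**Figure D2:**
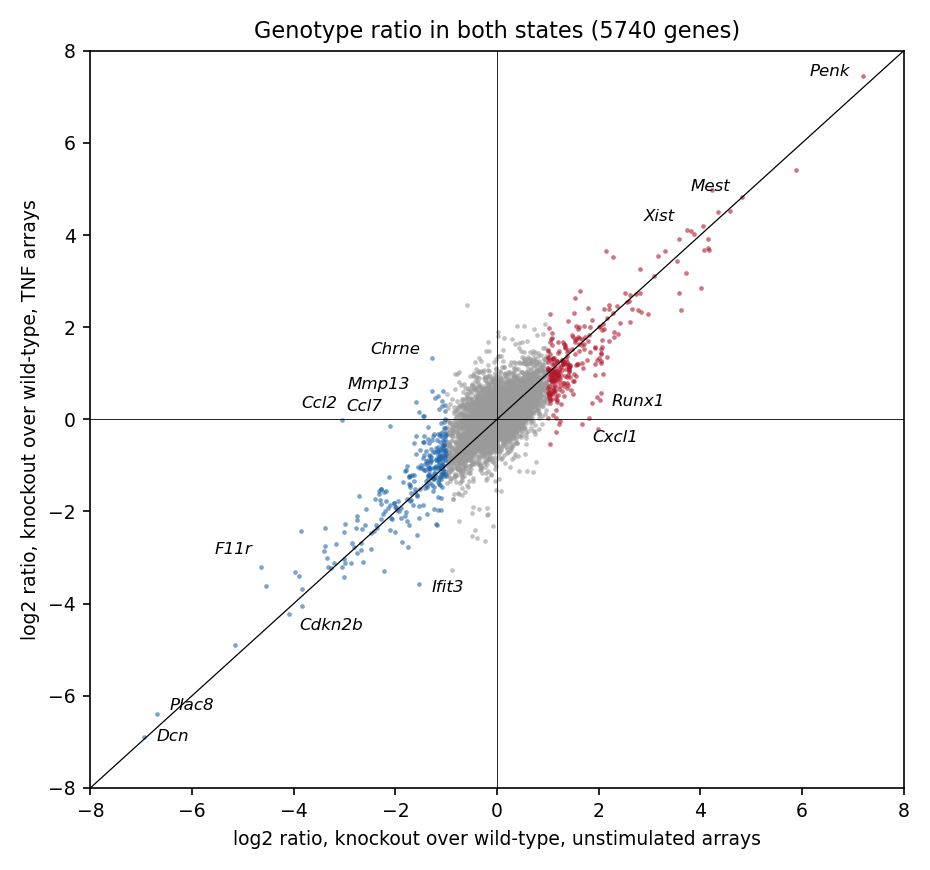
Log2 ratio of knockout over wild-type on the unstimulated arrays (x axis) against the same ratio on the TNF arrays (y axis) for 5740 genes. Red points mark ratios of 2-fold or more and blue points the reverse, both without TNF. Penk, Mest, Dcn and Plac8 lie on the line of equal ratios, while Ccl2 and Ccl7 lie near 0 on the y axis.

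Xiap itself was dim. The probe set with the most signal read 239 in wild-type and 180.5 in knockout cells, a log2 ratio of -0.41. A second probe set read 115 and 93.4, a ratio of -0.30, and the third did not reach the floor. Neither measured probe set differed 2-fold. The position of these probes relative to the deletion is unknown here, so they do not check the genotype labels.

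In the families that Xiap is usually set beside, counts past 2-fold were near the share of all measured genes, and in lists this short a count of 0 does not set them apart. None of 7 measured genes of inhibitor of apoptosis proteins and their partners differed 2-fold, although 1 of 9 was higher with the floor at the 20th percentile. The widest ratio among them, 0.80, was that of Commd1, which encodes a protein of copper handling that Xiap binds, with signals of 245 and 427. None of 10 measured NF-kB subunit and feedback genes differed 2-fold. Nfkbia, the inhibitor that holds NF-kB in the cytoplasm, read 585 and 738, and Nfkbie, a relative of it, read 253 and 192. Of 17 measured caspase and death receptor genes, 1 was at least 2-fold lower. This was Tnfrsf1b, the second TNF receptor, at 420 in wild-type and 173 in knockout cells (log2 ratio -1.28, adjusted p 0.00734). In the BCL-2 family, Bcl2, which protects mitochondria against permeabilisation, read 773 and 357 (log2 ratio -1.12). Bnip3, a mitophagy receptor induced by low oxygen, read 235 and 725 (log2 ratio 1.63). The other 12 of 14 measured members were within 2-fold.

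Penk, the precursor gene of the enkephalin opioid peptides, had the highest ratio of all measured genes. Its signals, 118 for wild-type against 17354 for knockout, were 147-fold apart, and the TNF arrays read 86.4 and 16162. A second measured Penk probe set gave at least 4.01 on the log2 scale. Both probe set names carry suffixes of less specific designs, the first of a kind that can pick up related sequences. Itm2a, a type II membrane protein gene, read 16 and 5433, at least 58.7-fold apart. The signals of Sfrp2, a secreted modulator of Wnt signalling, were 835 and 12198, a log2 ratio of 3.87. All 25 genes with the highest ratios were at least 2-fold higher on the TNF arrays as well, and 10 of the 25 are bounds. Others of them were Clec11a, a secreted lectin that acts as a growth factor for bone (113 and 2708), and Capn6, a calpain without protease activity (218 and 4441). Anxa8, an annexin gene, read 180 and 2519.

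At the other end stood Dcn, which encodes decorin, a small proteoglycan that binds collagen fibrils. It read 15414 in wild-type and 124 in knockout cells, 124-fold apart, with a log2 ratio of -6.95 here and -6.90 on the TNF arrays. Plac8, a small cysteine-rich protein gene, read 9909 and 96.4, a ratio of -6.68. In knockout cells both genes stood close to the floor. C1qtnf3, a secreted protein related to complement C1q, read 3284 and 17.7, at least 35.5-fold apart. F11r, a junctional adhesion molecule gene, read 4881 and 195, a ratio of -4.64, and -3.20 on the TNF arrays. Gas5, a non-coding RNA that hosts small nucleolar RNAs, read 7536 and 912, a log2 ratio of -3.05. Its second measured probe set read 220 and 78.2, a ratio of -1.25 or lower. Npy1r, a neuropeptide Y receptor gene, read 1449 and 39.5. Of the 25 genes with the lowest ratios, 24 were at least 2-fold lower on the TNF arrays too, the exception being Ccl2, and 14 are bounds.

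Genes of mitosis were higher in knockout cells across most of the list. Of 52 measured, 11 were at least 2-fold higher (21.15%) and 0 lower, against 4.55% and 4.7% of all measured genes. A ratio above 0 was seen for 49, and the median log2 ratio was 0.76, against -0.01 for all genes. On the TNF arrays the median was 0.83. The limma fit called 36 of the 52 higher and 1 lower, against 11.4% and 10.4% of all genes in the fit. Kif11, a spindle motor gene, read 154 against 634 (log2 ratio 2.04). Top2a, the topoisomerase that untangles sister chromatids, read 171 and 587 (1.78), and Mki67, the proliferation marker Ki-67, read 139 and 455 (1.71). These 3 are above all other measured members of the list in their ratio. Plk4, the kinase that starts centriole duplication, read 284 and 761, and Cdk1, the kinase that drives entry into mitosis, read 650 and 1409. The second probe set of Mki67 read 77.5 and 92.9, near or below the floor. Genes of the G1/S transition and of DNA replication showed the same sign with smaller ratios. Of 63 measured, 3 were at least 2-fold higher, or 4.76% and thus near the 4.55% of all measured genes, and 0 were lower. In this list 51 had a ratio above 0, and the median was 0.22. Rrm2, a subunit of the reductase that makes deoxyribonucleotides, read 324 and 813. Fen1, a flap endonuclease of lagging strand synthesis, read 286 and 653.

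Promoters of mitosis genes are known for a CCAAT box combined with a cell cycle gene homology region, through which these genes are held down outside G2 and mitosis. The 250 bases before the annotated start were searched on both strands for the CCAAT box by those 5 letters. They were also searched for the core of the homology region, TTTGAA, and matches may share edge bases. RefSeq promoters (table of build GRCm38.p6) were matched for 43 of the 52 measured mitosis genes. The other mitosis genes were not searched, and a missing match does not show that they lack an annotated promoter. Both motifs were present in 14 of the 43, or 32.6%. The share was 4.27% for the matched promoters of all measured genes and 5.73% for the 27025 promoters searched. The CCAAT box was present in 72.1% of the 43, in 36.3% for measured genes and in 34.5% of all promoters searched. For the homology region core these shares were 34.9%, 10.7% and 16.3%. Of the 9 matched promoters of mitosis genes at least 2-fold higher, 7 held both. An E2F-like motif (TTTGGCGC, TTTCCCGC, TTTCGCGC or TTTGCCGC, both strands) was present in 22.6% of 53 matched G1/S and replication promoters. It was present in 4.65% of matched mitosis promoters, near the 3.64% for measured genes, and in 1.91% of all promoters searched. Of the 3 matched promoters of G1/S and replication genes at least 2-fold higher, 0 held it. A match is a description of letters and not a binding site. The promoters of the 3 mitosis genes with the highest ratios and of Cdk1 are shown as examples that hold both motifs. Among the other higher members, the promoter of Plk4, next in ratio to these 3, held none of the motifs, and that of Cks2 held the CCAAT box without the homology region core. They run 5′ to 3′ on the gene's strand, with both motifs or their reverse complements and, in Cdk1, an E2F-like match in capitals.
Kif11 (chr19:37376132-37376381, plus strand): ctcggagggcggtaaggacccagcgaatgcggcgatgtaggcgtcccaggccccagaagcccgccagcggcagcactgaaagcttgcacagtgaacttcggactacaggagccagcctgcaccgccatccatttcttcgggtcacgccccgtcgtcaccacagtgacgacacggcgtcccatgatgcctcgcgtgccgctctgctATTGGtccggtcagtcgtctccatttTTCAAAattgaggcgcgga
Top2a (chr11:99024190-99024439, minus strand): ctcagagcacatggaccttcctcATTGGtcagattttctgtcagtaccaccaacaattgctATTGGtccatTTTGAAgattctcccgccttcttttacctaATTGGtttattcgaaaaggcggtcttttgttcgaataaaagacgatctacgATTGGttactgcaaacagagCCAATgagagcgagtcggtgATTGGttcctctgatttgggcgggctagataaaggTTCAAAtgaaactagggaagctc
Mki67 (chr7:135716380-135716629, minus strand): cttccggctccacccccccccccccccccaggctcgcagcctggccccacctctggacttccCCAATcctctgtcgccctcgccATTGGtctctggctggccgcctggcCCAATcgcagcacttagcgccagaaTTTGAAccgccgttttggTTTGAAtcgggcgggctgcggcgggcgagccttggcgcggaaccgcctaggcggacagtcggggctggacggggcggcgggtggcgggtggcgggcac
Cdk1 (chr10:69352913-69353162, minus strand): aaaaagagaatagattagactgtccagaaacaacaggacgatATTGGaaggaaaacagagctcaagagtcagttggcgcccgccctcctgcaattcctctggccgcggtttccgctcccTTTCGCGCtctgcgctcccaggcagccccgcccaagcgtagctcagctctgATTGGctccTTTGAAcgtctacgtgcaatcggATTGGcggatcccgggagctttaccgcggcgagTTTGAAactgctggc

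Inhibitors of the cell cycle and p53 target genes differed in both directions. Of 30 measured, 11 were at least 2-fold higher (36.7%) and 2 lower (6.67%), against 4.55% and 4.7% of all measured genes. The lower ones were the neighbouring genes Cdkn2a, which encodes the p16INK4a and p19ARF proteins, and Cdkn2b, which encodes p15INK4b. Cdkn2a read 2152 against 72.3, at least 23.3-fold apart, and 1316 and 107 on the TNF arrays. For Cdkn2b the signals were 1577 and 6.30, at least 17.0-fold apart, and 1722 and 3.20 with TNF. Both genes thus stood high on each wild-type array and low on each knockout array. The nearest genes on the array on either side did not differ 2-fold. Before the locus Ifna4 read 120 and 128, near the floor (0.09), Ifna5 read 244 and 164 (-0.57), and Gm13290 had a ratio of -0.004. After it Plaa had a ratio of 0.03, Jun of 0.13 and Fggy of -0.05. Their distances are not given here, so these values do not bound the extent of the difference. The arrays measure RNA only, and the cause of the difference was not tested. The higher members included Cdkn1c, which encodes p57KIP2 and read 26.9 and 654 (at least 7.07-fold), and Cdkn1a, which encodes p21, a p53 target (490 and 1328, log2 ratio 1.44). A second Cdkn1a probe set gave 1.71. Perp, a p53 target in desmosomes, read 15.9 and 1545 (at least 16.7-fold). Ccng1, a p53-induced cyclin gene, read 407 and 1247, and Gadd45g, a stress and growth arrest gene, read 202 and 833. Of the 11 higher members 3 lie on chromosome 10, described below.

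**Figure D3:**
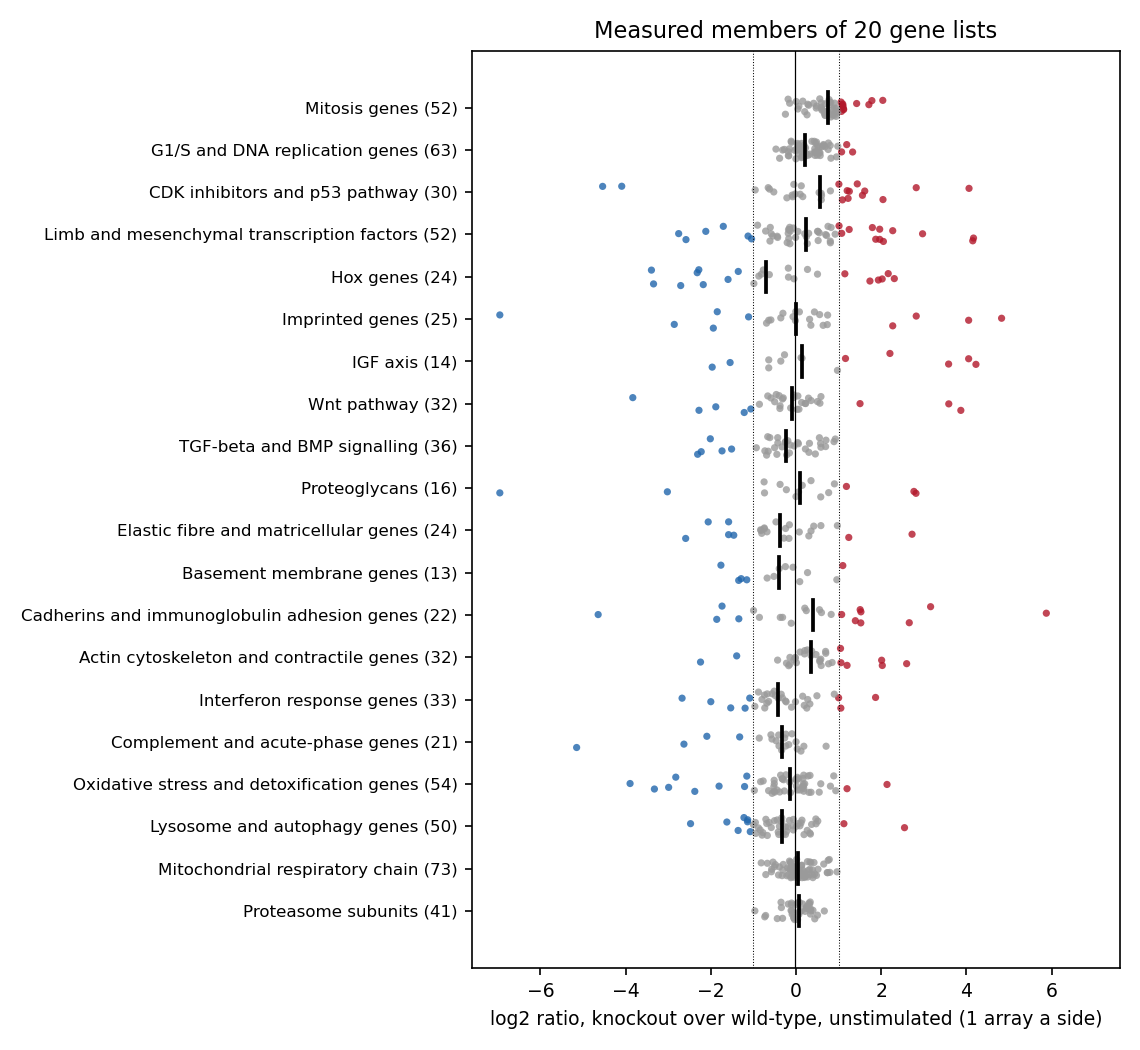
Log2 ratio of knockout over wild-type without TNF for each measured member of 20 gene lists, with the number measured in parentheses. Black bars are list medians, the solid vertical line is the median of all genes at -0.01, and dotted lines mark 2-fold. The mitosis list is shifted to the right as a whole with a median of 0.76, while the matrix, Hox and imprinted lists spread to both sides and no respiratory chain or proteasome gene passes 2-fold.

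Genes that mark position in the body differed by place in the cluster. Hox genes lie in clusters whose order follows the body axis, with low-numbered groups expressed towards the head and high-numbered groups towards the tail and the ends of the limbs. Of 24 measured Hox genes, 6 had at least 2-fold more signal in knockout cells and 8 at least 2-fold less. In paralogue groups 1 to 8, 7 of 16 were lower and 1 higher, with a median log2 ratio of -0.93. In groups 9 to 13, 5 of 8 were higher and 1 lower, with a median of 1.44. Hoxa7 read 972 against 23.4 (at least 10.5-fold), and Hoxc8 read 1644 and 162, a ratio of -3.34. Hoxa5, Hoxb6 and Hoxb7 had log2 ratios of -2.71, -2.32 and -2.18, the first of them a bound. In the other direction Hoxa10 read 0.80 and 353, Hoxa11 read 9.50 and 415, and Hoxd10 read 32.7 and 458. None of these 3 was above the floor in wild-type cells. Within the Hoxa cluster all 6 measured genes of groups 2 to 7 thus had ratios below 0 and the 3 of groups 9 to 11 had ratios above 0. Exceptions to the order were Hoxb9, which read 450 and 8.10, and Hoxd8, which read 128 and 520. The order along the cluster was noticed after the values had been seen, and the grouping was not tested. On the TNF arrays 4 Hox genes passed 2-fold upwards and 6 downwards. The upward part depended on the floor. With the floor at the 60th percentile 15 members of the list stayed measured, and 0 passed 2-fold upwards and 4 downwards.

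**Figure D4:**
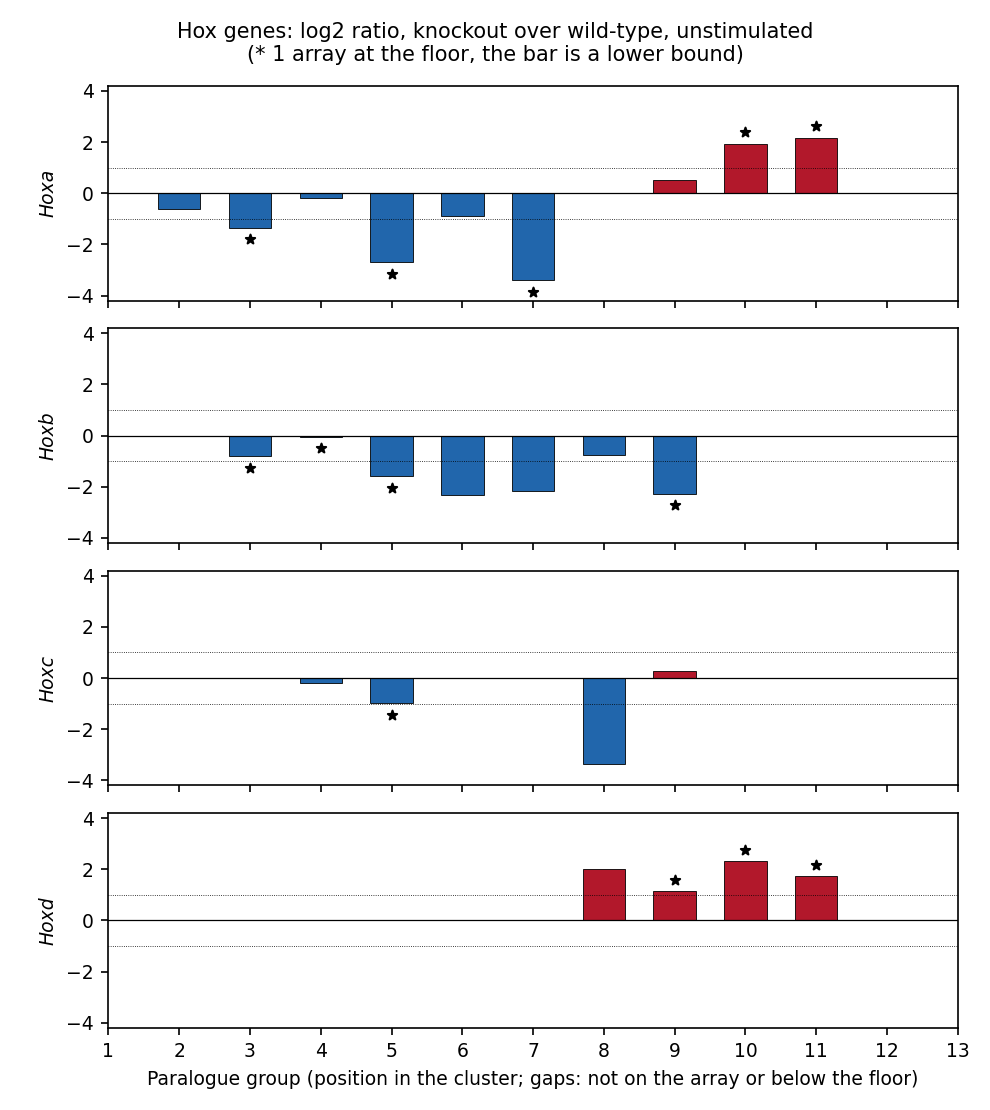
Log2 ratio of knockout over wild-type without TNF for the 24 measured Hox genes, by cluster (panels) and paralogue group (x axis). Bars marked with a star are lower bounds because 1 array was at the floor. Hoxa genes of groups 2 to 7 lie below 0 and those of groups 9 to 11 above 0, and all 4 measured Hoxd genes lie above 0.

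Other transcription factors of limb and mesenchyme differed widely, with 12 of 52 measured genes at least 2-fold higher (23.1%) and 6 lower (11.5%). Among all measured genes these shares were 4.55% and 4.7%. Pitx1, which gives the hindlimb its identity, read 175 in wild-type and 3149.5 in knockout cells (log2 ratio 4.17). Shox2, a homeobox gene of the proximal limb, read 140 and 2475, a ratio of 4.15, with a second probe set at 2.19 or more. Irx3, an Iroquois homeobox gene, read 94.8 and 743. On the TNF arrays the ratios of these genes were 3.67, 3.91 and 2.28. Among the lower genes were Twist2, a helix-loop-helix factor of dermis and mesenchyme, at 3942 and 584 (log2 ratio -2.75), and En1, an engrailed homeobox gene, at 554 and 16.9 (at least 5.99-fold). Foxd1, a forkhead gene of stroma, read 1190 and 274. All of these passed the limma fit.

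Several imprinted genes, expressed from 1 parental copy, were far apart. Past 2-fold were 4 higher and 5 lower of 25 measured, and the median was -0.01. Mest, expressed from the paternal copy, read 304.5 in wild-type and 8637.5 in knockout cells, a ratio of 4.83 in both states. Grb10, an adaptor that dampens insulin and IGF receptor signalling, read 204 and 3391 (4.05), and its second measured probe set gave 3.89. Peg3, a zinc finger gene, read 455 and 2196 (2.27), with 2.08 and 0.61 from its other measured probe sets. The neighbours Meg3, a non-coding RNA, and Dlk1, a membrane protein related to Notch ligands, come from 1 locus and opposite parental copies. Both were lower, Meg3 at 4047 and 558 (log2 ratio -2.86) and Dlk1 at 1479 and 385 (-1.94). Plagl1, a zinc finger gene on chromosome 10, read 1177 and 327. The list thus held differences in both directions and no common shift.

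The insulin-like growth factor axis had 5 of 14 measured members at least 2-fold higher (35.7%) and 2 lower (14.3%). All measured genes had 4.55% higher and 4.7% lower. Igf1, whose probe sets disagree as given below, is counted among the 5. Igfbp2, a binding protein that holds IGF outside the cell, read 177 and 3313.5 (log2 ratio 4.22). Igfbp4, another binding protein, read 981 and 4525 (2.21), while Igfbp6 read 5347 and 1367 (-1.97) and Igfbp3 read 505 and 173 (-1.55). The binding proteins therefore differed in opposite directions. Igf1, the ligand, read 175 and 2101, a ratio of 3.58, but its second measured probe set read 923 and 918, a ratio of -0.01, so the direction for this gene is uncertain.

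Secreted modulators of Wnt signalling separated in the same way. Sfrp2 and Dkk3, both secreted and both related to Wnt antagonists, were higher, Dkk3 at 472 and 5668 (log2 ratio 3.59). Their relatives Frzb (1317 and 7.70, at least 14.2-fold), Sfrp1 (1187 and 322) and Sfrp4 (at least 4.85-fold) were lower. Over the whole Wnt list 3 of 32 were higher (9.4%) and 5 lower (15.6%), against 4.55% and 4.7% of all measured genes. In TGF-beta and BMP signalling 0 of 36 were at least 2-fold higher and 5 lower (13.9%). Id2, an inhibitor of helix-loop-helix factors that BMP induces, read 1384 and 279 (-2.31). Fst and Grem1, secreted antagonists of activin and BMP, read 470 and 101, and 1572 and 390. Eng, a co-receptor, read 1774 and 532. Across this list limma called 2 higher and 11 lower of 36, against 11.4% and 10.4% of all genes in the fit.

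Extracellular matrix genes differed by member. The fibrillar collagens Col1a1, Col1a2 and Col3a1 had ratios of -0.18, -0.04 and 0.20. Among all 22 measured collagen chains 1 was at least 2-fold higher (4.5%) and 4 lower (18.2%). All measured genes had 4.55% higher and 4.7% lower. Col8a1, a short-chain collagen, read 2484 and 174 (-3.83), and Col4a5, a basement membrane chain, read 1111 and 115 (-3.28). The basement membrane list had 1 of 13 higher (7.69%) and 4 lower (30.8%). Among the lower were Agrn (-1.76), a heparan sulphate proteoglycan, and Nid1 (-1.35), which links laminin to collagen. A second Agrn probe set gave -0.30. The small leucine-rich proteoglycans separated: beside Dcn, Lum read 750 and 58.6 (at least 8.11-fold lower), whereas Fmod read 1001 and 7048 (2.82). Vcan, the large hyaluronan-binding proteoglycan versican, read 258 and 1755 (2.77). In the elastic fibre and matricellular list 2 of 24 were higher (8.33%) and 5 lower (20.8%). Mfap2, a microfibril gene, read 2011 and 334 (-2.59), and Mgp, an inhibitor of calcification, read 5594 and 1340 (-2.06). Ccn5, a matricellular gene, read 325 and 2149 (2.72). Proteases and inhibitors had 3 of 25 higher and 5 lower. Mmp3, a stromelysin, read 738 and 10.6 (at least 7.98-fold), and Ctsk, a collagen-degrading cathepsin, read 1796 and 323. Ctsh, another cathepsin, read 70.1 and 541 (at least 5.84-fold higher).

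Adhesion and junction genes had 8 of 22 measured members at least 2-fold higher (36.4%) and 4 lower (18.2%). All measured genes had 4.55% higher and 4.7% lower. Cd24a, a glycosylated surface protein gene, read 658 and 5881 (log2 ratio 3.16), and Gja1, the gap junction protein connexin 43, read 834 and 5268 (2.66, with 2.56 from a second probe set). Both genes lie on chromosome 10. The Gja1 probe set names carry the same suffixes as those of Penk. Thy1, a fibroblast surface marker, read 1120 and 309 (-1.86). None of 9 measured integrins differed 2-fold. Of the contractile and actin list, 6 of 32 were higher (18.75%) and 2 lower (6.25%), with a median of 0.36. Csrp2, a LIM protein, read 683 and 4130 (2.60), Cnn1, calponin of smooth muscle, read 475 and 1913 (2.01), and Tagln, transgelin, read 3578 and 8212 (1.20). Mylk, the myosin light chain kinase, was lower at 4364 and 923 (-2.24). The smooth muscle markers are no separate reading, since Cnn1 and Tagln belong to them and to this list. Of these markers 3 of 4 were measured, summing to 13480 and 22290, with Myh11 below the floor on both arrays. Acta2 read 9408 and 12153, a ratio of 0.37. Their part in the result was not tested.

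Detoxification, lysosomal and lipid genes were more often lower than higher. In the oxidative stress and detoxification list 8 of 54 were at least 2-fold lower (14.8%) and 2 higher (3.7%). All measured genes had 4.7% lower and 4.55% higher. Gpx3, the secreted glutathione peroxidase, read 6162 and 776 (log2 ratio -2.99). Gstm2, a glutathione transferase with close relatives that may share hybridisation, read 2631 and 372 (-2.82), and its second probe set gave -0.31. Mgst1, a microsomal glutathione transferase, read 1377 and 32.5 (at least 14.9-fold). Sod3, the extracellular superoxide dismutase, went the other way at 203 and 894. Of 50 measured lysosome and autophagy genes 7 were at least 2-fold lower and 2 higher, the median was -0.33, and in the limma fit 25 fell and 5 rose. Asah1, acid ceramidase, read 4721 and 1533, and Scarb2, a lysosomal membrane protein, read 1345 and 524. Lpl, lipoprotein lipase, read 977 and 12.2 (at least 10.6-fold lower), while Ptgis, prostacyclin synthase, read 729 and 3883 (2.41). Of 41 measured lipid genes, 5 were at least 2-fold lower (12.2%) and 2 higher (4.88%), against 4.7% and 4.55% of all measured genes. Adipocyte markers move with the lipid genes: Pparg read 186 and 53.7 and Fabp4 158 and 53.5, and Adipoq was below the floor on both arrays. Their part in the result was not tested.

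Respiratory chain, proteasome and ribosomal protein genes showed few differences. None of 73 measured respiratory chain genes and none of 41 proteasome genes differed 2-fold, with medians of 0.05 and 0.06. Ribosomal protein genes had 0 of 26 higher and 1 lower, or 3.85%, near the share of all measured genes. In glycolysis and the hypoxia response 5 of 38 were higher (13.2%) and 3 lower (7.89%), both above the shares of all measured genes. Ldha, lactate dehydrogenase, read 4799 and 10852 (1.18), and Ero1a, an oxidase of the endoplasmic reticulum, read 2976 and 916 (-1.70). Of the 5 higher genes 3 lie on chromosome 10. Among 108 solute carriers 6 were higher (5.56%) and 4 lower (3.70%), near the 4.55% and 4.7% of all measured genes. Slc29a1, a nucleoside transporter, read 572 and 3255 (2.51), and Slc7a3, a cationic amino acid transporter, read 1946 and 512 (-1.93).

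Some chemokine genes were apart without TNF and close with it. Ccl2, which recruits monocytes, read 1439 in unstimulated wild-type and 173 in unstimulated knockout cells (log2 ratio -3.05), but 18414 and 18083 on the TNF arrays (-0.03). Ccl7, its neighbour in function and on chromosome 11, read 406 and 94.7 (-2.10), then 7577 and 6875 (-0.14). Cxcl1, which recruits neutrophils, was higher in unstimulated knockout cells at 153 and 486 (1.67), with 2.08 from a second probe set, and then stood at 3157 and 2956. The genotypes were thus apart at the low levels without TNF and close at the high levels with it. Cxcl12, a constitutive stromal chemokine, read 10849 and 2446 (-2.15) and had a ratio of -1.93 with TNF. Its other measured probe sets gave -1.28 and -0.69 without TNF. Of 20 measured chemokines and cytokines 2 were at least 2-fold higher and 5 lower without TNF. The collagenase gene Mmp13 read 348 and 115, and its ratio with TNF was 0.38. In all, 67 genes were past 2-fold without TNF and under 0.5 on the log2 scale with it, 22 higher and 45 lower, 18 of them bounds. They were chosen for this difference, which was not tested.

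Interferon-inducible genes leaned lower in their median, -0.42, with 5 of 33 measured at least 2-fold lower (15.15%) and 3 higher (9.09%). Both shares were above the 4.7% and 4.55% of all measured genes. With the floor at the 60th percentile 1 of 14 was lower and 0 higher. Ifi30, a lysosomal thiol reductase of antigen processing, read 1737 and 272 (log2 ratio -2.67). Ifit3, an antiviral effector, read 268 and 55.2 (at least 2.89-fold) and on the TNF arrays 1461 and 122.8. Irgm1, an interferon-inducible GTPase gene, was higher at 141 and 516 (1.87). Of 21 complement and acute-phase genes 4 were lower (19.05%) and 0 higher. The lower ones included Tfpi, the tissue factor pathway inhibitor, at 804 and 130 (-2.63), and Thbd, thrombomodulin, at 395 and 13.2 (at least 4.27-fold).

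Transcripts of the sex chromosomes differed between the lines. Xist, the RNA that coats the inactive X chromosome of female cells, read 34.3 against 1232 in knockout cells, then 5.40 and 1601 with TNF. The Y-linked Eif2s3y read 489 and 2.80, Uty 128 and 15.9, and Kdm5d 99.1 and 14.5. Without TNF all 3 measured Y-linked genes were thus above the floor in wild-type cells only, Kdm5d by little. On the wild-type TNF array Eif2s3y read 308, while Uty at 58.3 and Kdm5d at 37.0 were below the floor. Eif2s3x, the X-linked partner of Eif2s3y, read 2437 and 4745 (log2 ratio 0.96), and Kdm6a, the partner of Uty, 352 and 582 (0.72). Sex of the cells and genotype therefore cannot be told apart in these arrays. X-linked genes as a whole had a median ratio of -0.02 over 170 measured genes.

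Genes of chromosome 10 were shifted upwards as a group, a pattern noticed after the values had been seen. Of 276 measured, 57 were at least 2-fold higher (20.6%) and 9 lower, 79.0% had a ratio above 0, and the median was 0.53, a ratio of 1.45. On the TNF arrays the median was 0.62. When the genes were taken in 6 equal blocks along the chromosome, each block had a median between 0.43 and 0.75. Chromosome 13 had a median of 0.28, with 20 of 198 genes higher and 8 lower, and the same median on the TNF arrays, where chromosome 7 had 0.32. Medians of the other chromosomes, leaving out Y, lay between -0.19 and 0.15, and their shares of higher genes between 1.54% and 7.52%. Among the higher genes of chromosome 10 were Perp, Cd24a, Gja1, Csrp2 and Kitl, the ligand of the receptor Kit, at 96.7 and 406. Dcn and Lum, the lowest, lie on it too. Without the genes of chromosome 10 the counts were 219 higher and 276 lower. Of the 52 measured mitosis genes 2 lie on it, 1 of them among the 11 higher. Why the chromosome is shifted was not tested, since the arrays measure RNA only.

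**Figure D5:**
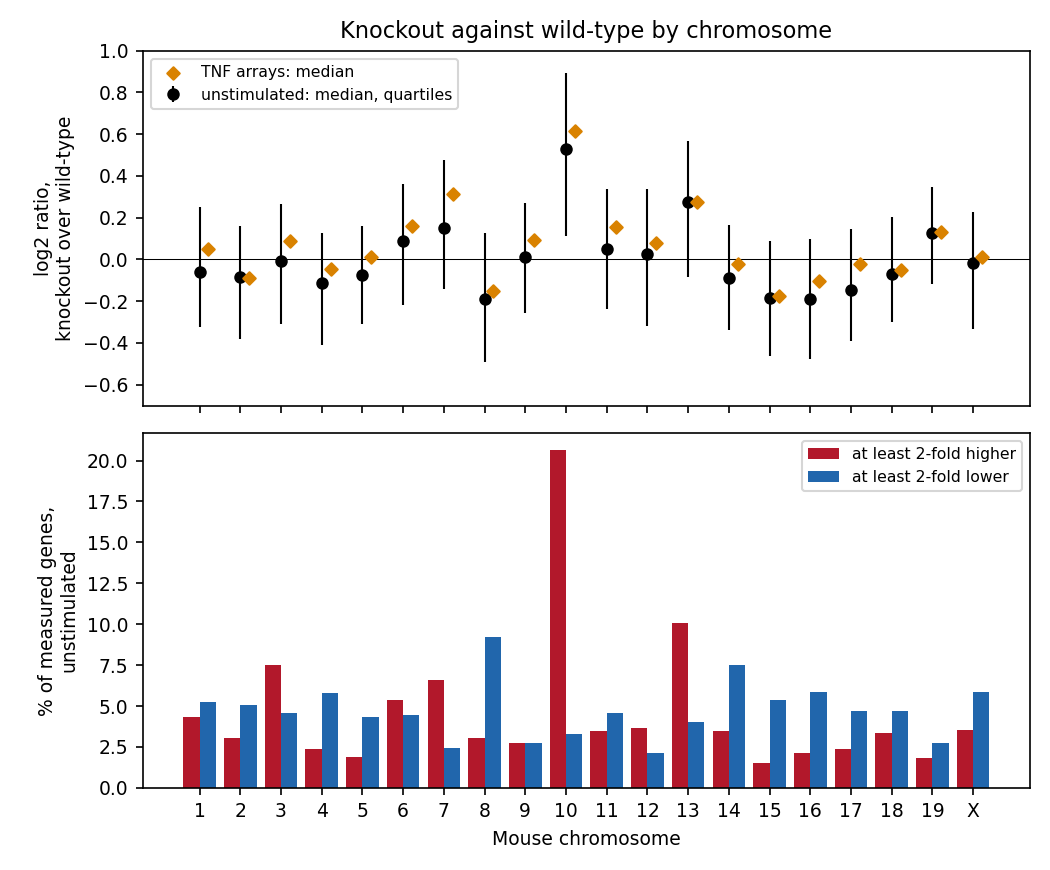
Upper panel, median log2 ratio of knockout over wild-type for measured genes of each chromosome but Y without TNF (black, lines span the quartiles) and median on the TNF arrays (orange). Lower panel, share of measured genes at least 2-fold higher (red) or lower (blue) without TNF. Chromosome 10 has a median of 0.53 and 20.6% of its genes higher, chromosome 13 a median of 0.28, and the other chromosomes shown, which leave out Y, have medians between -0.19 and 0.15 without TNF.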

How the data were processed

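Total RNA of 4 cultures was hybridised to 1 array each. Sample titles gave the groups. The deposited intensity values were made by the authors with the MAS5 method, per the submitters' processing notes. Not given in the sources used here are the version and detection calls. All columns had a trimmed mean of 500.3. Probe sets were named through the platform annotation, and 8237 of 8251 genes were matched to the RefSeq gene table, which gave chromosomes. The arrays name no genome build, so coordinates are given for promoters alone. For the 2073 genes with several probe sets, the one with the highest mean over the arrays was used, and signals were floored and converted to log2. The unstimulated pair, 1 array a side, has no test. The additive fit used limma 3.58.1 in R 4.3.3 (lmFit, eBayes with intensity trend, 2-sided, Benjamini-Hochberg over 6174 genes, 5.62 prior degrees of freedom). Its p-values rest on the difference of the genotype ratio between the TNF states, with the spread mostly pooled over genes. They do not measure a spread between cultures. The fit was also run on simulated data where far fewer genes changed than it called here, all by the same fold. It recovered most of the changed genes, but no spread between cultures was simulated. The share of false calls varied between simulations and in some of them was above the threshold of 0.05. The limit set on that share was loosened after a first run had failed it, so the counts of the fit are to be read with caution.

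Named genes were the 25 highest and 25 lowest ratios, at most 4 members past 2-fold of every list (or the 2 widest where none passed), the 10 smallest adjusted p-values in each direction, Xiap, sex-linked genes and cell type markers. Other members of the Hox list and of lists with more than 4 members past 2-fold, and the neighbours of Cdkn2a, were named after their values had been seen. Members and lists were chosen with earlier results of these data known. Alternatives were equal medians, quantile normalization, other floors (20th and 60th percentile), a pseudocount of 50, the mean of all probe sets, both arrays above the floor, and a fit without trend. Probe sets with no symbol or several symbols were left out of the gene counts.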

Additional observations from a re-analysis of the deposited data

Results flagged for a closer look

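Probe sets outside the gene counts also differed between the unstimulated arrays. Of 1193 probe sets with no symbol, 494 were measured. Past 2-fold were 25 with more (5.06%) and 23 with less signal (4.66%) in knockout cells. Of 396 with several symbols, 262 were measured, and the same counts were 13 (4.96%) and 8 (3.05%). Among all measured genes the shares were 4.55% and 4.7%. No gene name was taken from them.

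Chrne, the epsilon subunit gene of the muscle acetylcholine receptor, was the one gene at least 2-fold lower without TNF and at least 2-fold higher with it. Its signals were 329 in wild-type and 136 in knockout cells without TNF (log2 ratio -1.27), and 165 and 412 with TNF (1.32). The difference was not tested, and a second measured probe set of the gene had a ratio of -0.20 without TNF and 1.09 with it.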

How the results depend on the processing

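The counts of genes past 2-fold depended on the floor. With the floor at the 20th percentile 456 genes were higher and 525 lower, of 7476 measured. At the 60th percentile 153 were higher and 163 lower, of 4324 measured. A higher floor leaves fewer genes measured, and it also narrows the ratio of a gene with 1 array under it. At the 60th percentile 96 of the higher and 104 of the lower genes were also past 2-fold on the TNF arrays. The limma fit called 465 genes higher and 428 lower when all probe sets of a gene were averaged, and 411 lower without the intensity trend, and the cause was not tested. The share of higher among all genes past 2-fold lay between 42.6% and 51.3% over the settings run. Without the genes of chromosomes 10 and 13, an alternative chosen after seeing the data, 199 were higher and 268 lower. The balance of 4 lists turned. These were axon guidance genes at the 60th percentile (1 higher, 2 lower), solute carriers at the 20th (9 and 14), and, without chromosome 10, imprinted genes (4 and 3) and glycolysis genes (2 and 3). The Hox list kept its balance, but at the 60th percentile no member passed 2-fold upwards (0 and 4). Ratios of single named genes were recomputed with the floor at the 20th percentile, quantile normalization and the mean of probe sets. Where still measured, none of those past 2-fold changed direction in these 3 settings. With 1 array a side no replicate could be left out. No paired analysis was possible because each group holds a single array and the labels carry no replicate number. The additive fit does compare the genotypes within each TNF state.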
